A study of Mus musculus with 6 samples.

Results

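The genes of antigen presentation by the major histocompatibility complex (MHC) were followed in demyelinated mouse brain lesions. Of 10 genes chosen for their roles in class I and class II presentation, 8 had a probe set whose annotation gave only their own symbol, out of 22180 such genes on the array. They were the class II genes H2-Aa, H2-Ab1, H2-Eb1 and Ciita and the class I genes H2-K1, B2m, Tap1 and Psmb8, each read from 1 probe set. Cd74 and H2-D1 each shared their only probe set with another gene, Mir5107 and H2-Q2, so those 2 probe sets were set apart.

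One Affymetrix array was run on each of 6 macrodissected lesions, 3 from transgenic and 3 from wild type mice aged 5 to 6 weeks. The transgene lets non-proliferative GFAP+ astrocytes be eliminated by induced apoptosis. No label states its promoter, the mouse strain or the MHC haplotype. Lesions were made with LPC, a detergent-like lipid that strips myelin, CID, the agent that triggers the ablation, was injected 48 hours later, and brains were taken 7 days after the lesion. The labels give LPC and CID for both genotypes. The labels do not say whether replicate lesions came from different mice, so each p reflects the spread among these lesions, which may be technical. Levels are log2 intensities after RMA normalization, differences are transgenic minus wild type, and an adjusted p is from limma with Benjamini-Hochberg adjustment over all 41345 probe sets.

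MHC class I molecules show peptides of the cell's own proteins to CD8 T cells. The proteasome cuts the peptides, TAP carries them into the endoplasmic reticulum, and a heavy chain such as H2-K binds them together with beta-2 microglobulin. Class II molecules show peptides from engulfed material to CD4 T cells, and their alpha and beta chains are assembled with the invariant chain Cd74. In healthy brain both are scarce outside vessels and border tissues, and microglia, the resident phagocytes of the brain, raise them on activation, class II mainly under interferon gamma. Ciita switches on the class II genes through proteins already bound to the X and Y boxes of their promoters, and Nlrc5 does the same for class I.

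The promoters below are shown because they hold the elements through which these genes are known to be driven together. RefSeq promoters (GRCm38.p6) were matched for 6 of the 8 genes, and the 150 bases before the start are given for H2-Aa, H2-Eb1, H2-K1 and B2m. Capitals mark matches, on either strand, to the Y box core ATTGG, the X1 box core GCAACNG, the X2 box TGACGTCA and the core of the interferon-stimulated response element, TTCNNTTTC. No matches overlapped.
H2-Aa, chr17:34287824-34287973, minus strand: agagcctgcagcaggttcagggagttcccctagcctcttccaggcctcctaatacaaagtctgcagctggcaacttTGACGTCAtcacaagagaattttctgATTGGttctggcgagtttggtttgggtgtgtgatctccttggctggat
H2-Eb1, chr17:34305717-34305866, plus strand: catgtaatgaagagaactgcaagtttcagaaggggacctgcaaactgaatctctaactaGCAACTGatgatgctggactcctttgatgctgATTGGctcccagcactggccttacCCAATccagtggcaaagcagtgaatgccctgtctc
H2-K1, chr17:34000348-34000497, minus strand: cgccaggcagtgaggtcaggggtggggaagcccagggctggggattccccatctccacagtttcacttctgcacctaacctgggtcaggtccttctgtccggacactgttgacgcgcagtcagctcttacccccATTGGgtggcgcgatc
B2m, chr2:122147537-122147686, plus strand: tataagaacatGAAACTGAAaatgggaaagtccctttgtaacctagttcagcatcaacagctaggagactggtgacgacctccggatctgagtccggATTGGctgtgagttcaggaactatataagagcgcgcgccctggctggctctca
H2-K1 has 2 annotated starts, of which the first in the table is shown. The Y box core stood in all 4 sequences, and so in 4 of the 6 matched genes. It stood in 24.5% of 32851 promoter windows of the same length. As the 4 are shown because they hold such elements, their count cannot be set against that share. The X1 core, in H2-Eb1, was found in 6.51% of windows and the X2 box, in H2-Aa, in 1.36%. The letters chosen for the interferon element, matched in B2m, were found in 3.95%. Only these exact letters were sought, so a promoter without that mark, such as H2-K1, may hold a variant of the element. The windows of Tap1 and Psmb8 held none of these letters. A match is a description of the sequence and was not tested as a binding site.

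Neither class was called different between transgenic and wild type lesions. None of the 8 genes had an unadjusted p under 0.05, against 8.87% of all probe sets, and none passed the adjusted threshold of 0.05, as was so for all 41345 probe sets (0%). In all 8 the groups overlapped, whereas they did not overlap for 16.1% of probe sets. The median difference was 0.01 for class II and -0.07 for class I, against -0.01 over all probe sets. The class II genes split, with H2-Aa and H2-Eb1 higher on average in transgenic lesions and H2-Ab1 and Ciita lower. With array weights, which rest mostly on transgenic replicate 3 within its group, H2-Eb1 differed by 0.03 and Ciita by -0.01. The class I genes varied between lesions of the same genotype, as did H2-Ab1 of class II.

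Among the class II genes, H2-Aa, the alpha chain of the H2-A molecule, stood at 4.32, 4.62 and 4.44 in transgenic replicates 1, 2 and 3, against 4.03, 4.39 and 4.23 in wild type replicates 1, 2 and 3. Transgenic replicates 2 and 3 lay above every wild type lesion, and replicate 1 lay below wild type replicate 2. The difference was 0.25 (SE 0.16), 1.19-fold, with a 95% interval of -0.13 to 0.62 and an adjusted p of 0.71. H2-Ab1, the beta chain that pairs with it, stood at 6.14, 5.37 and 5.86 in transgenic lesions and 6.34, 6.03 and 5.99 in wild type lesions. Transgenic replicate 2 was the lowest of the 6 lesions, and the groups overlapped through transgenic replicate 1. The difference was -0.33 (SE 0.22, interval -0.86 to 0.20, adjusted p 0.721). The means of the partner chains thus differed in opposite directions, but neither difference passed the test and the contrast between them was not tested.

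H2-Eb1, the beta chain of the H2-E molecule, stood at 5.88, 5.67 and 5.35 in transgenic lesions and 5.18, 5.54 and 5.25 in wild type lesions. Transgenic replicates 1 and 2 were the highest of the 6. Its difference was 0.31 (SE 0.19), 1.24-fold, with an interval of -0.13 to 0.75 and an adjusted p of 0.686, the lowest of the 8 genes. Ciita, the coactivator on which class II transcription depends, stood at 6.14, 6.10 and 6.46 in transgenic lesions and 6.55, 6.32 and 6.52 in wild type lesions. Transgenic replicates 1 and 2 were the lowest, while transgenic replicate 3 lay among the wild type lesions. Its difference was -0.23 (SE 0.16, interval -0.61 to 0.14, adjusted p 0.726).

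The 95% intervals of the class II genes reached at most 1.68-fold higher, for H2-Eb1, and 1.81-fold lower, for H2-Ab1. The probe sets of H2-Aa and H2-Eb1 were dim, with means below the median probe set, so without detection calls a low level cannot be told from background. MHC chains differ between strains, and how far the probes match the alleles of these mice was not tested. Single lesions mattered for the separation of the groups. Without wild type replicate 2, H2-Aa and H2-Eb1 lay higher and Ciita and Tap1 lower with no overlap, 4 of the 8 genes, where 22.7% of probe sets did so. Without transgenic replicate 1 this held for 2 genes (33.1% of probe sets), H2-Aa, higher, and H2-Ab1, lower. Without transgenic replicate 3 it held for H2-Eb1, higher, and Ciita, lower (26.5%). H2-Ab1 without transgenic replicate 1 was the only case with an unadjusted p under 0.05 when 1 lesion was left out, at -0.51 (adjusted p 0.399 in limma).

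**Figure D1:**
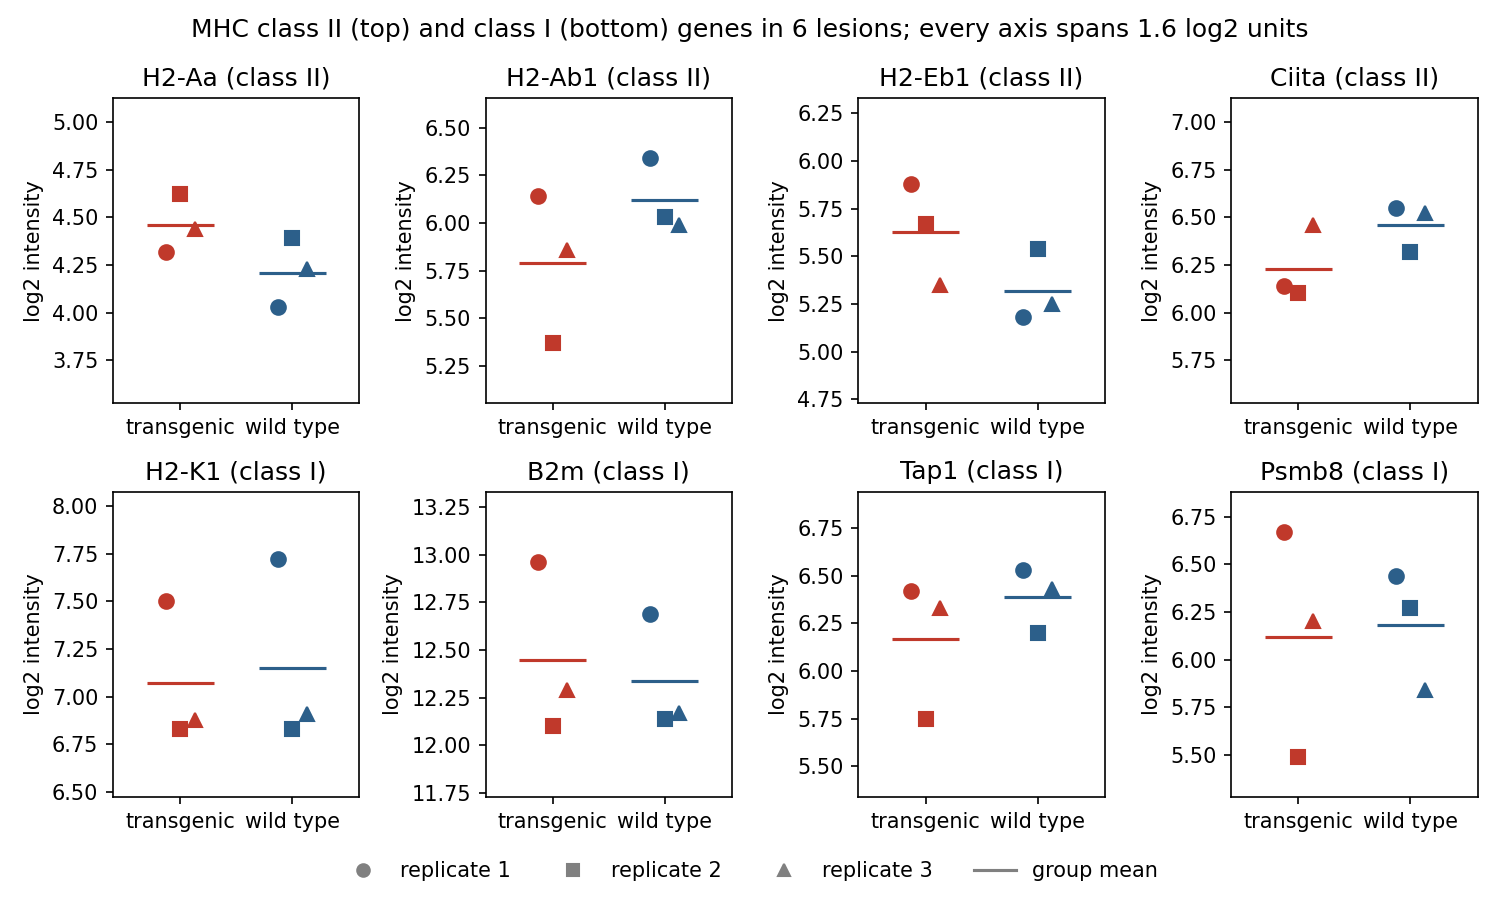
Log2 intensity of the 4 class II genes (top) and 4 class I genes (bottom) in each lesion, transgenic left and wild type right; symbols are replicates, horizontal lines are group means, and every vertical axis spans 1.6 units. The groups overlap in all 8 genes, and for H2-K1 and B2m replicate 1 of each genotype stands above the other lesions.

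The class I genes had a median SD of 0.41 in transgenic and 0.31 in wild type lesions. Over all probe sets it was 0.26 in transgenic and 0.15 in wild type lesions. For class II it was 0.23 in transgenic and 0.18 in wild type lesions. H2-Ab1 of class II, with an SD of 0.39 in transgenic lesions, spread there about as widely as H2-K1 (0.37) and Tap1 (0.36). H2-K1, a classical class I heavy chain, stood at 7.50, 6.83 and 6.88 in transgenic lesions and 7.72, 6.83 and 6.91 in wild type lesions. Replicate 1 of each genotype was high, and the other 4 lesions lay between 6.83 and 6.91. The difference was -0.08 (SE 0.29, interval -0.77 to 0.60, adjusted p 0.96). Its direction turned, to 0.20, without wild type replicate 1, to 0.04 without transgenic replicate 2 and to 0.01 without transgenic replicate 3.

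B2m, the light chain of every class I molecule, stood at 12.96, 12.10 and 12.29 in transgenic lesions and 12.69, 12.14 and 12.17 in wild type lesions. The same 2 lesions were the highest. The difference was 0.11 (SE 0.26, interval -0.51 to 0.73, adjusted p 0.935), and it turned to -0.14 without transgenic replicate 1.

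Psmb8, a catalytic subunit of the interferon-induced immunoproteasome, stood at 6.67, 5.49 and 6.20 in transgenic lesions and 6.44, 6.27 and 5.84 in wild type lesions. It had the widest range of the 8 genes, 1.18 among the transgenic lesions, where replicate 2 was lowest. Its difference was -0.06 (SE 0.31, interval -0.80 to 0.67, adjusted p 0.972), and it turned to 0.25 without transgenic replicate 2 and to 0.06 without wild type replicate 1. Tap1, a subunit of the peptide transporter, stood at 6.42, 5.75 and 6.33 in transgenic lesions and 6.53, 6.20 and 6.43 in wild type lesions. Transgenic replicate 2 alone was far below the rest, and the difference of -0.22 (SE 0.21, interval -0.72 to 0.28, adjusted p 0.81) shrank to -0.01 without it. That array had the lowest median over all probe sets, 5.34 against 5.52 to 5.59, and was lowest for 11444 of 41345 probe sets. After median centring the Tap1 difference was -0.17. The class I intervals reached at most 1.66-fold higher, for B2m, and 1.74-fold lower, for Psmb8.

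The mean of each class was also read per lesion, with every gene centred on its own mean over the 6 arrays. Class I stood at 0.40, -0.44 and -0.06 in transgenic replicates 1, 2 and 3 and at 0.36, -0.12 and -0.14 in wild type replicates 1, 2 and 3. Class II stayed between -0.09 and 0.09. Its genes differed in opposite directions, so this mean hides the spread of single genes such as H2-Ab1. The difference between the genotypes was -0.06 for class I and 0.00 for class II, and class II minus class I differed by 0.06. Both signs depended on single lesions: the class I median of -0.07 was 0.14 without transgenic replicate 2, 0.13 without wild type replicate 1 and -0.32 without transgenic replicate 1, and class II minus class I was -0.10 without transgenic replicate 2 or wild type replicate 1. No test was made on these means.

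Phagocyte markers were on average highest in the same 2 lesions as H2-K1, B2m and Psmb8, though not always in the same order. These lesions held the 2 highest values for 9 of the 12 markers. Gpnmb and Itgax were instead highest in wild type replicate 2, at 10.66 and 5.75. By genotype, the transgenic mean was above the wild type mean for 4 of the 12 and below it for 8 (median difference -0.41). The groups overlapped for every marker. The mean of 12 phagocyte markers was 8.20, 6.88 and 6.80 in transgenic lesions and 8.40, 7.77 and 6.96 in wild type lesions. Replicate 1 of each genotype was thus highest here too. Cd68, a lysosomal glycoprotein, stood at 10.60, 8.69 and 8.31 in transgenic lesions and 10.86, 9.95 and 8.80 in wild type lesions. Those 2 lesions also held the highest values for H2-K1, B2m, Psmb8 and H2-Ab1, 4 of the 8 genes, against 8.05% of all probe sets, a pattern noticed in the data and given as a description. In bulk tissue, fewer cells of a type and less RNA per cell cannot be told apart, and the part of phagocytes in these values was not tested. With the phagocyte mean as a covariate, a fit chosen after seeing the data, H2-K1 differed by 0.12, B2m by 0.30 and Psmb8 by 0.15, with adjusted p-values of 0.901, 0.704 and 0.896 in limma.

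**Figure D2:**
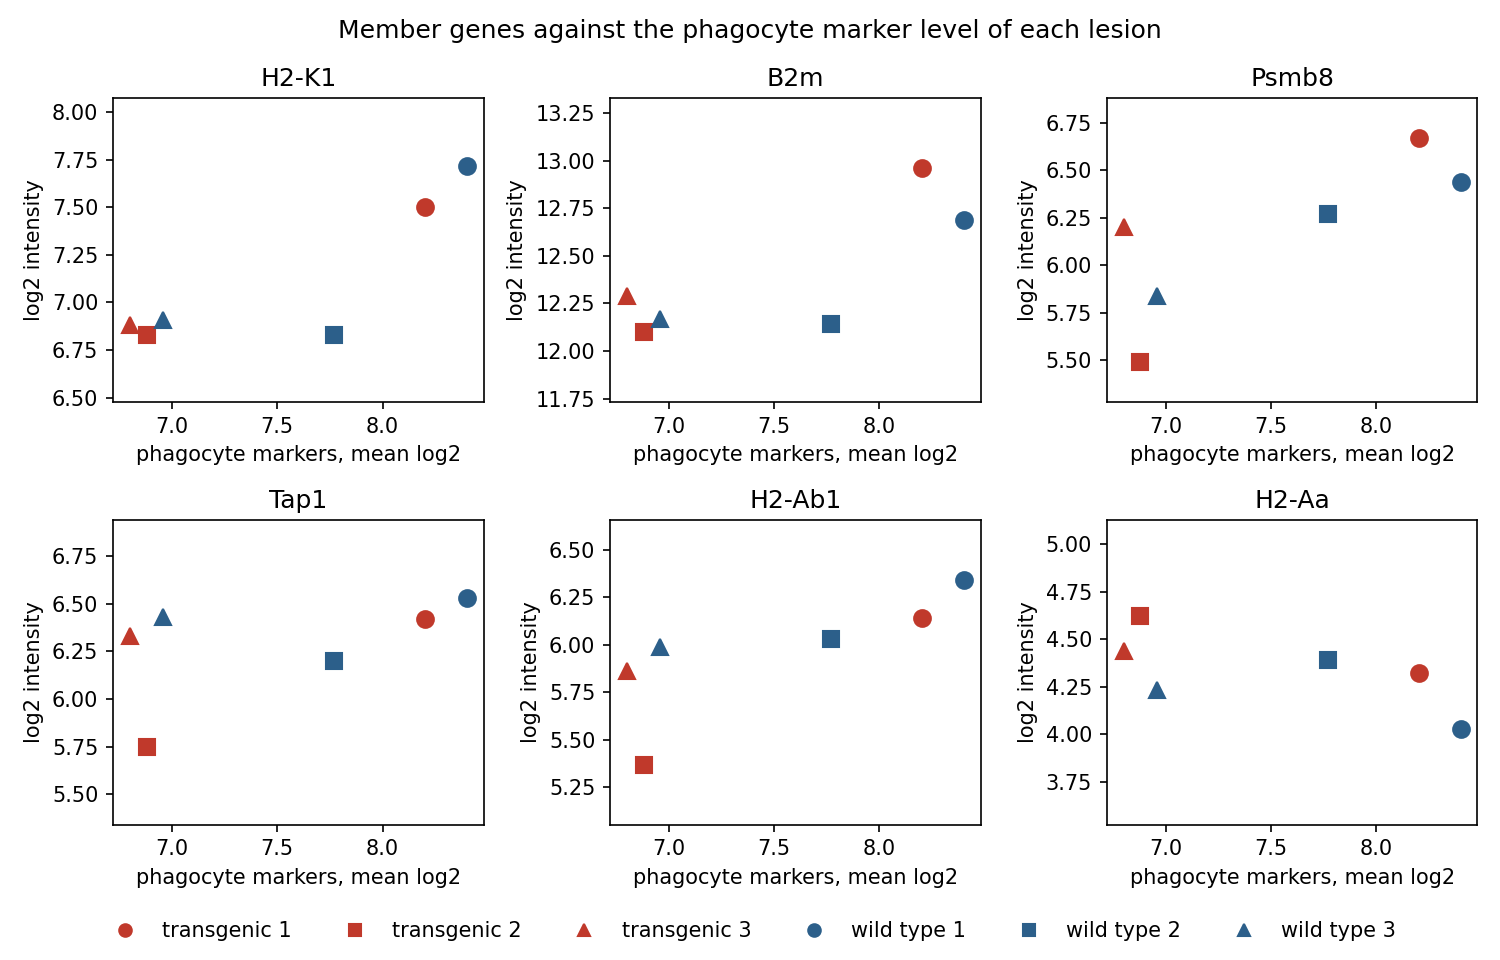
Log2 intensity of 6 genes (vertical) against the mean log2 level of 12 phagocyte markers on the same array (horizontal), 1 point per lesion, transgenic red and wild type blue, with vertical axes spanning 1.6 units. Replicate 1 of each genotype, at 8.20 (transgenic) and 8.40 (wild type) on the horizontal axis, holds the highest H2-K1, B2m, Psmb8 and H2-Ab1, whereas H2-Aa is lowest in wild type replicate 1.

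The genes whose pattern was most like that of H2-K1 were Ly86, Stab1, C1qc, Fcrls and Slc7a7, with Pearson correlations of 0.985 to 0.998 over the 6 arrays. Ly86, a secreted partner of a Toll-like receptor homologue, stood at 9.83, 7.89 and 8.08 in transgenic lesions and 10.42, 8.06 and 8.07 in wild type lesions. C1qc is a chain of the complement protein C1q and Fcrls a microglial surface protein. For H2-Aa they were Tango2, Atp6v1e1, Parp6, Triqk and Mrpl47, at 0.970 to 0.990. Atp6v1e1, a subunit of the vacuolar proton pump, stood at 10.49, 10.99 and 10.56 in transgenic lesions and 10.02, 10.43 and 10.32 in wild type lesions. The search ran over 3218 genes, of which 59 correlated above 0.9 with H2-K1 and 55 with H2-Aa, and with 6 arrays of which 2 set the range such values are a description only.

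The remaining genes of class II presentation gave no call either. Of 19 measured genes, 8 had higher and 11 lower means, the median difference was -0.06, and none had an unadjusted p under 0.05. Ctss, the protease that trims the invariant chain, stood at 11.82, 10.50 and 10.86 in transgenic lesions and 11.85, 11.27 and 10.81 in wild type lesions, high in replicate 1 of each genotype. Its difference was -0.25 (SE 0.39, adjusted p 0.892). Lgmn, an endosomal protease, differed by -0.42 (SE 0.39), and H2-DMa, a chain of the peptide-exchange molecule H2-M, by -0.22 (SE 0.21). Among the factors that bind the X and Y boxes, Rfxap differed by 0.27 (SE 0.16), Rfx5 by 0.10 (SE 0.21) and Nfyb by 0.15 (SE 0.18). Nfya, a subunit of the Y box factor, was the only gene of the list without overlap (7.6% of probe sets in that direction), at 6.44, 6.71 and 6.34 in transgenic lesions and 6.74, 6.73 and 6.76 in wild type lesions, a difference of -0.24 (SE 0.15, adjusted p 0.689).

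The rest of class I presentation had mean differences on both sides of 0. Of 16 measured genes, 9 had higher and 7 lower means, with a median difference of 0.03. One gene had an unadjusted p under 0.05 on the higher side (4.82% of probe sets) and 1 on the lower side (4.05%), and none passed the adjusted threshold. In 3 genes every transgenic lesion lay above every wild type lesion (8.54% of probe sets) and in 3 every one lay below (7.6%). Psmb10, another subunit of the immunoproteasome, stood at 8.68, 8.32 and 8.16 in transgenic lesions and 7.81, 7.86 and 8.02 in wild type lesions. Every transgenic lesion lay above, and the difference was 0.49 (SE 0.18), 1.40-fold, with an interval of 0.07 to 0.90 and an adjusted p of 0.514. Psme1 and Psme2, the subunits of the proteasome activator PA28, also lay higher in every transgenic lesion, by 0.29 (SE 0.14, adjusted p 0.609) and 0.22 (SE 0.16, adjusted p 0.752). A second probe set that names Psme2 together with other genes ran the other way, at -0.52 (SE 0.27). Psmb9, the third induced subunit, overlapped and differed by 0.03 (SE 0.30).

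Tapbp, which bridges the class I heavy chain to the transporter, stood at 7.13, 7.13 and 7.18 in transgenic lesions and 7.66, 7.47 and 7.51 in wild type lesions. Every transgenic lesion lay below, and the difference was -0.40 (SE 0.13, interval -0.71 to -0.09, adjusted p 0.492). Its second probe set with 1 symbol disagreed, at 6.80, 6.59 and 6.69 in transgenic lesions and 6.58, 6.74 and 6.46 in wild type lesions, a difference of 0.10 (SE 0.15). A probe set shared by Tapbp and Zbtb22 lay higher in every transgenic lesion (8.54% of probe sets), by 0.39 (SE 0.20). The value and direction of Tapbp are thus uncertain. Pdia3, a disulfide isomerase of the loading complex, also lay lower in every transgenic lesion, by -0.29 (SE 0.17, adjusted p 0.677). Calr and Canx, general chaperones of the endoplasmic reticulum named here after their values were seen, differed by -0.40 (SE 0.23) and -0.32 (SE 0.20) and overlapped. Nlrc5, the coactivator of class I genes, stood at 5.19, 5.04 and 5.28 in transgenic lesions and 5.32, 5.39 and 5.29 in wild type lesions. The groups did not overlap, although transgenic replicate 3 lay just below wild type replicate 3, and the difference was -0.17 (SE 0.14, adjusted p 0.774 in limma). The mean of Nlrc5 lay below the median probe set. Tap2, the partner of Tap1, differed by -0.20 (SE 0.18).

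**Figure D3:**
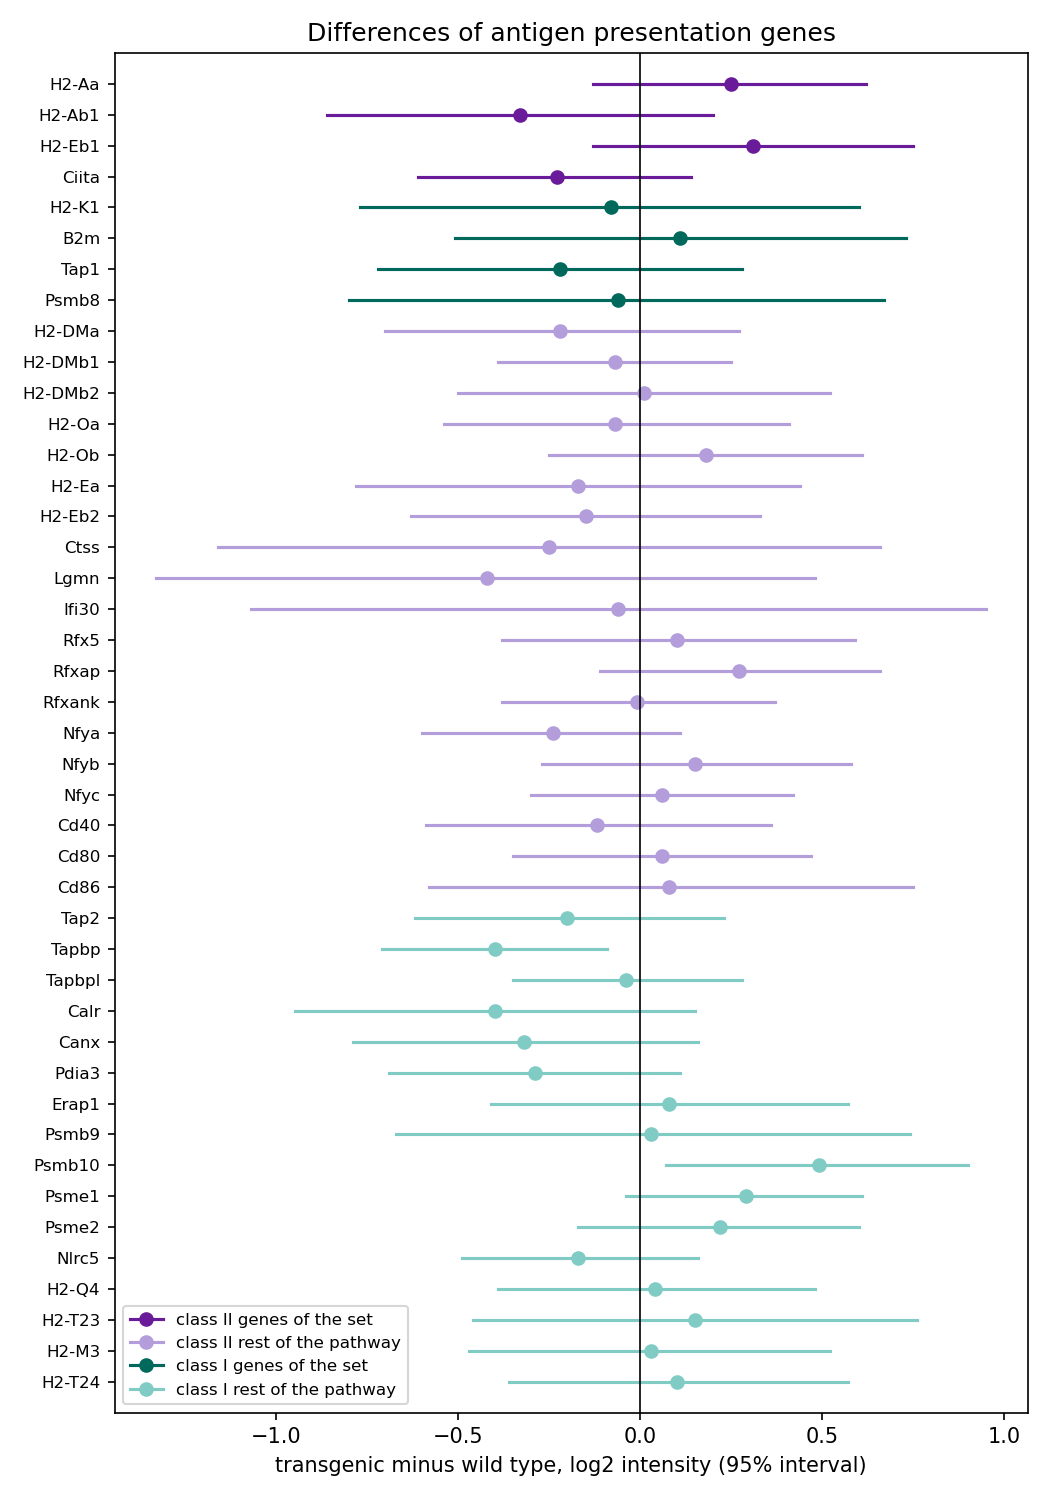
Transgenic minus wild type difference in log2 intensity with its 95% limma interval for the 8 genes (dark) and the rest of class II and class I presentation (light). The intervals of all 8 include 0, as do those of the other genes except Psmb10, higher, and Tapbp, lower in the probe set used. Neither passes the adjusted threshold, and other probe sets of Tapbp ran the other way.

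Interferon gamma, which induces both classes, and the genes listed with its signalling gave no call. Of 10 measured genes, 3 had higher and 7 lower means, with a median difference of -0.07 and no unadjusted p under 0.05. The median was -0.30 over the 7 genes kept when dim probe sets were left out. Jak2, a kinase of the receptor, was the only gene without overlap (7.6% of probe sets on the lower side), with a difference of -0.36 (SE 0.20, adjusted p 0.658). Ifngr1, a receptor chain, differed by -0.38 (SE 0.29), Irf8, a transcription factor of microglia and macrophages, by -0.30 (SE 0.24; -0.17 in its second probe set), and Il12rb1 by -0.31 (SE 0.18). Socs1, a feedback inhibitor counted in the same median, differed by 0.21 (SE 0.19). Irf1, an induced activator of class I genes, differed by -0.05 (SE 0.15), and Ifng itself by -0.07 (SE 0.16). The means of these 3 genes lay below the median probe set.

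The probe sets shared between genes add 1 value to each class. The probe set of Cd74 and Mir5107 stood at 7.11, 6.69 and 6.75 in transgenic lesions and 6.73, 6.88 and 6.50 in wild type lesions, a difference of 0.15 (SE 0.18, adjusted p 0.854). That of H2-D1 and H2-Q2 stood at 4.94, 4.72 and 4.79 in transgenic lesions and 5.02, 5.04 and 5.17 in wild type lesions. Every transgenic lesion lay below there (7.6% of probe sets), with a difference of -0.26 (SE 0.14, adjusted p 0.644 in limma). The mean of this probe set lay below the median probe set, so its level cannot be told from background. Class I heavy chains are a family of near-identical copies that can share probes, so H2-K1 and this probe set are both uncertain in that respect.

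Other cells that could carry MHC transcripts were read from marker lists. Each list gave the mean of its measured genes per lesion. Many markers were dim, below the median probe set: 6 of 9 for border macrophages and monocytes, 3 of 7 for dendritic cells, 4 of 5 for B cells and 7 of 8 for T and NK cells. Mrc1, Pf4, Cd3e, Cd2 and Itgax were dim too, and such levels cannot be told from background. Endothelial cells (7 genes) ranged from 5.45 to 5.81 in transgenic and 5.57 to 5.67 in wild type lesions. Microglia (10 genes) ranged from 7.48 to 7.75 in transgenic lesions and from 7.50 to 8.77 in wild type lesions, where replicate 1 was highest. Wild type replicates 2 and 3 both stood at 7.50. The transgenic mean lay below the wild type mean for all 10 (median difference -0.28). For 2 of these the groups did not overlap (7.6% of probe sets on the lower side), and none passed the adjusted threshold. Tmem119, a microglial surface protein, differed by -0.26 (SE 0.17). Border macrophages and monocytes (9 genes) ranged from 4.91 to 5.46 in transgenic and 5.04 to 5.16 in wild type lesions, with 4 genes higher, 5 lower and a median difference of -0.05. Mrc1, the mannose receptor, differed by -0.05 (SE 0.19). Pf4, a chemokine, named after its value was seen, stood at 5.48, 5.35 and 5.50 in transgenic lesions and 5.02, 4.80 and 4.97 in wild type lesions. It was the only gene of that list without overlap (8.54% of probe sets on the higher side), higher by 0.52 (SE 0.14, adjusted p 0.433 in limma). Dendritic cells (7 genes) ranged from 5.79 to 5.99 in transgenic and 5.84 to 6.00 in wild type lesions. That level was raised by Cd209a, with means of 10.78 in transgenic and 10.88 in wild type lesions. A second probe set of Cd209a averaged only 5.05 in transgenic and 4.96 in wild type lesions. B cells (5 genes) ranged from 4.43 to 5.07 in transgenic and 4.79 to 4.92 in wild type lesions, and T and NK cells (8 genes) from 4.76 to 5.32 in transgenic and 5.07 to 5.16 in wild type lesions. Of the dendritic cell markers, 2 were higher and 5 lower, with a median difference of -0.04. Flt3, a growth factor receptor of these cells, was the only one without overlap (8.54% of probe sets on the higher side), by 0.37 (SE 0.15, adjusted p 0.541). Of the T and NK cell markers, 3 were higher and 5 lower, with a median of -0.08. Cd3e, a chain of the T cell receptor complex, differed by -0.09. Cd2, by 0.32 (SE 0.14), and Nkg7, by 0.13 (SE 0.14), lay higher in every transgenic lesion (8.54% of probe sets). Both were named after their values were seen. Itgax, an integrin of dendritic cells and activated microglia, differed by -0.53 (SE 0.26).

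Several properties of the lesions differed between the groups beside MHC genes, and their part in these results was not tested. Means of all 7 oligodendrocyte markers were lower in transgenic lesions (median difference -0.91), as were those of 6 of 8 astrocyte markers (median -0.33). Gfap differed by -0.37 (SE 0.23). For microglia all 10 markers, and for phagocytes 8 of 12, also averaged lower (medians -0.28 and -0.41). The microglia list stood at 7.75, 7.50 and 7.48 in transgenic lesions and 8.77, 7.50 and 7.50 in wild type lesions. In that list mean only wild type replicate 1 stood clearly above the transgenic lesions. Striatal neuron markers (4 genes) ranged from 5.95 to 6.31 in transgenic lesions and from 6.03 to 8.48 in wild type lesions, high in wild type replicates 2 and 3. Xist, expressed from the inactive X chromosome of females, stood at 4.67, 9.14 and 4.42 in transgenic lesions and 9.49, 9.30 and 9.30 in wild type lesions. Eif2s3y, a Y chromosome gene, stood at 7.03, 3.32 and 6.80 in transgenic lesions and 2.55, 3.13 and 2.66 in wild type lesions. By these genes transgenic replicates 1 and 3 read as male and the other lesions as female, so sex differed between the groups. With the Xist level as a covariate, a fit chosen after seeing the data in which transgenic replicate 2 alone carries the genotype difference among lesions of high Xist, H2-Ab1 differed by -0.76 (adjusted p 0.158 in limma) and Tap1 by -0.65 (0.166). The class I median was then -0.48.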

How the data were processed

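Total RNA of 6 lesions was hybridised to 1 Affymetrix array each, and group and replicate were taken from the sample titles. Per the labels and the submitters' processing notes, the authors normalized the arrays by RMA in Affymetrix Expression Console. The deposited intensity values were on a linear scale (array medians 40.4 to 48.3, lowest value 3.73) and were turned to log2 with no pseudocount. No version, genome build, detection call or scan date is stated in the labels. Probe sets were named from GEO's platform annotation: 23521 had 1 symbol, 1814 several and 16010 none. For each gene the probe set with 1 symbol and the highest mean over the 6 arrays was used.

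All 41345 probe sets were fitted with limma (3.58.1, R 4.3.3; lmFit, eBayes, two-sided), without a covariate. SEs and 95% intervals are those of the fit, unadjusted for the number of genes. Precision is limited by 3 arrays a group, with a median SE of 0.19. On simulated data of 41345 probe sets the step recovered 35 of 100 changes of 1 and 96 of 100 of 2 on the log2 scale, with 12 false calls. A change of 1 was thus missed more often than found in the simulation. There each probe set had independent normal noise of equal spread in every array. The real arrays were unequal, so these counts may not hold for them. The 16 lists held 150 genes, of which 134 were measured. The others were not analysed here.

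The members and lists were chosen with earlier results of these data known. Named genes were the members, pathway genes with an unadjusted p under 0.05 or groups without overlap and then the largest differences up to 5 a list, and a few fixed genes. Genes alike in pattern were the 5 highest Pearson correlations among genes above the median probe set with an SD of at least 0.3. It was not run for Cd74, which has no probe set of its own. Alternatives covered normalization, dim probe sets, array weights, variance moderation, a pseudocount of 16, a replicate block and each array left out, plus 2 covariates added later.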

Additional observations from a re-analysis of the deposited data

How the results depend on the processing

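No gene of the 8 passed the adjusted threshold in any alternative; of 118 alternative values, 107 kept the sign of the difference. The 11 that turned concerned H2-K1 (-0.30 to 0.20 with 1 array left out, 0.12 with the phagocyte covariate), B2m (-0.14 to 0.29 with 1 array left out, -0.01 with array weights, -0.23 with the Xist covariate) and Psmb8 (-0.34 to 0.25 with 1 array left out, 0.02 after quantile normalization, 0.15 with the phagocyte covariate). The number of probe sets past the threshold, 0 with limma and all arrays, against 3668 at an unadjusted p under 0.05, was 2611 with array weights, where transgenic replicate 3 had a weight of 7.67 and the other transgenic arrays 0.258 and 0.284. It was 1238 with the Xist covariate and 0 to 335 with 1 array left out, the highest without transgenic replicate 2. Members with an unadjusted p under 0.05 numbered 0 to 1 with 1 array left out and 2 with the Xist covariate, and members without overlap 0 to 4. The class II median was -0.28 once the filter on dim probe sets removed H2-Aa and H2-Eb1, and 0.15 when the probe set of Cd74 and Mir5107 was admitted. The same filter put class II minus class I at -0.22 and the interferon gamma median at -0.30. With 1 array left out the class I median ranged from -0.32 to 0.14 and class II minus class I from -0.10 to 0.23; with the Xist covariate they were -0.48 and 0.38. The median of the other class I pathway genes was -0.12 with array weights and -0.09 without transgenic replicate 1. Array weights brought H2-Eb1 to 0.03, Ciita to -0.01 and Tap1 to -0.05 with no change of sign. The cause of these shifts was not tested beyond the genes each filter removed. No label states that replicate numbers pair lesions. Deviations of same-numbered arrays correlated at 0.01, -0.10 and -0.07, and those of other pairs at -0.07 to 0.11. With 3 arrays a group, such values cannot tell whether lesions were paired or shared a batch. With a replicate block 0 probe sets passed, the class II median stayed at 0.01 and the class I median at -0.07. Averaging several probe sets of a gene gave no further value, as each of the 8 had 1. Signal over background is unknown without detection calls.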
